A study of Caenorhabditis elegans with 59 samples.

Results

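The transposons of Caenorhabditis elegans, a small nematode, were followed through every entry whose identifier begins with WBTransposon. The mRNA tables hold 587 such entries among 23763 distinct identifiers. Of these, 191 also have a row in the generation 50 small RNA table, which has 23411 rows. An entry was tested where its mean reached 10 normalised counts in at least 1 group, which left 59 entries in the table of wild-type polyA and total RNA, 61 at generation 1 and 91 at generation 50 for mRNA, and all 191 for small RNA. The tables pair these identifiers with no transposon family name, so each entry is named by its identifier alone. All 191 small RNA rows carry the authors' mut class prefix, whose assignment is not given in the sources used here and may rest on such libraries, so their fall in mutator mutants is not independent of the class.

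The study sequenced RNA of whole gravid adults grown at 20 °C on E. coli OP50. The age label was 72 h for the generation 1 and polyA table libraries, and the generation 50 labels carry no age. Wild type was strain N2. The prg-1 mutant was SX922 [prg-1(n4357) I]. The double mutant was GR1948, which carries mut-14(mg464) and smut-1(tm1301) on chromosome V and also unc-119(ed3) on chromosome III. The triple mutant GR2070 combines prg-1(n4357) with the same mut-14 and smut-1 alleles and has no unc-119 allele in its label, so the double mutant differs from it by 2 loci. Each group had 3 libraries: separate lines at generation 50, and samples numbered as replicates at generation 1 and in the polyA table. The labels do not say whether those replicates were separate cultures, so p-values measure the spread between these samples.

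A transposon is a DNA element that can move or copy itself within a genome, and its movement in the germline damages genes. In C. elegans most DNA transposons are held silent in the germline by small RNAs made at Mutator foci, perinuclear bodies where RNA-dependent RNA polymerases copy a target transcript into antisense small RNAs that Argonaute proteins then carry. PRG-1 is the Piwi Argonaute that binds piRNAs, the genome-encoded small RNAs that mark foreign transcripts for this amplification. MUT-14 and SMUT-1 are paralogous DEAD-box RNA helicases of the Mutator foci that act redundantly in making the amplified small RNAs.

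The mutated genes themselves were read first. At generation 1, mut-14 stood at 1810 ± 53 (SD, n = 3) normalised counts in wild type, 42.7 ± 5.82 in the double mutant and 39.2 ± 7.3 in the triple mutant. For prg-1 the counts were 10340 ± 315 in wild type, 3905 ± 81.4 in the prg-1 mutant and 2708 ± 107 in the triple mutant. The unc-119 count was 27.7 ± 3.35 in the double mutant and 58.1 ± 10.3 in the triple mutant, against 97.8 ± 12.9 in wild type. Libraries held about 12053105 to 63849764 reads in the mRNA tables and 4417660 to 13038182 in the small RNA table.

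Small RNAs matching transposons were abundant in wild type and scarce without MUT-14 and SMUT-1. Summed over the 191 entries, they made up 1.93% ± 0.0379 (SD, n = 3) of the wild-type counts, 2.81% ± 0.155 in prg-1, 0.0313% ± 0.00569 in the double mutant and 0.0184% ± 0.00316 in the triple mutant. The sum may count a read more than once, and the rule for reads matching several copies was not given. In all, 140 entries fell into 11 groups whose members had near-equal values in all 12 libraries. The other 51 entries stood alone, which made 62 distinct profiles. This grouping was chosen after the values were seen, with a largest difference of 0.2 on the log2 scale after adding 10.

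Without MUT-14 and SMUT-1, limma called 186 of the 191 entries lower than in wild type and 0 higher at an adjusted p below 0.05, with 0 higher at an unadjusted p below 0.05 and 0 higher by edgeR or DESeq2. Over all 11654 features tested, 24.5% were lower and 54.8% higher. The median log2 change of the entries was -5.81, against 0.72 over all features. The other 2241 genes of the mut class moved in the same way, with 98.3% lower and a median of -5.02. WBTransposon00000275 gave 9268, 10430 and 10680 small RNA counts in the wild-type lines and 69.5, 66.7 and 57.4 in the double mutant lines, a log2 change of -7.27 ± 0.167 (SE, adjusted p = 4.86e-11). WBTransposon00000216, the entry with the highest wild-type count, gave 20700, 20170 and 20850 in wild type and 263, 216 and 186 in the double mutant. Both groups of libraries were far apart for these entries.

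Some entries kept more of their small RNAs than others in the double mutant. The 5 near-equal entries WBTransposon00000097, WBTransposon00000098, WBTransposon00000099, WBTransposon00000100 and WBTransposon00000114 had a median of 1658, 1968 and 1802 in the wild-type lines and still 169, 164 and 150 in the double mutant. Their log2 changes lay between -3.5 and -3.37. WBTransposon00000009 went from a mean of 77.5 to 27.3 (log2 change -1.5 ± 0.621, adjusted p = 0.0437). WBTransposon00000008 was one of the 5 entries not called, with means of 45.7 and 21.7 (adjusted p = 0.0627). The other 4 were WBTransposon00000048, WBTransposon00000049, WBTransposon00000050 and WBTransposon00000051, and there a single line decided the outcome. WBTransposon00000050 had 7.94 and 5.8 counts in double mutant lines 1 and 2 and 547 in line 3, against 132, 190 and 137 in wild type.

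**Figure D1:**
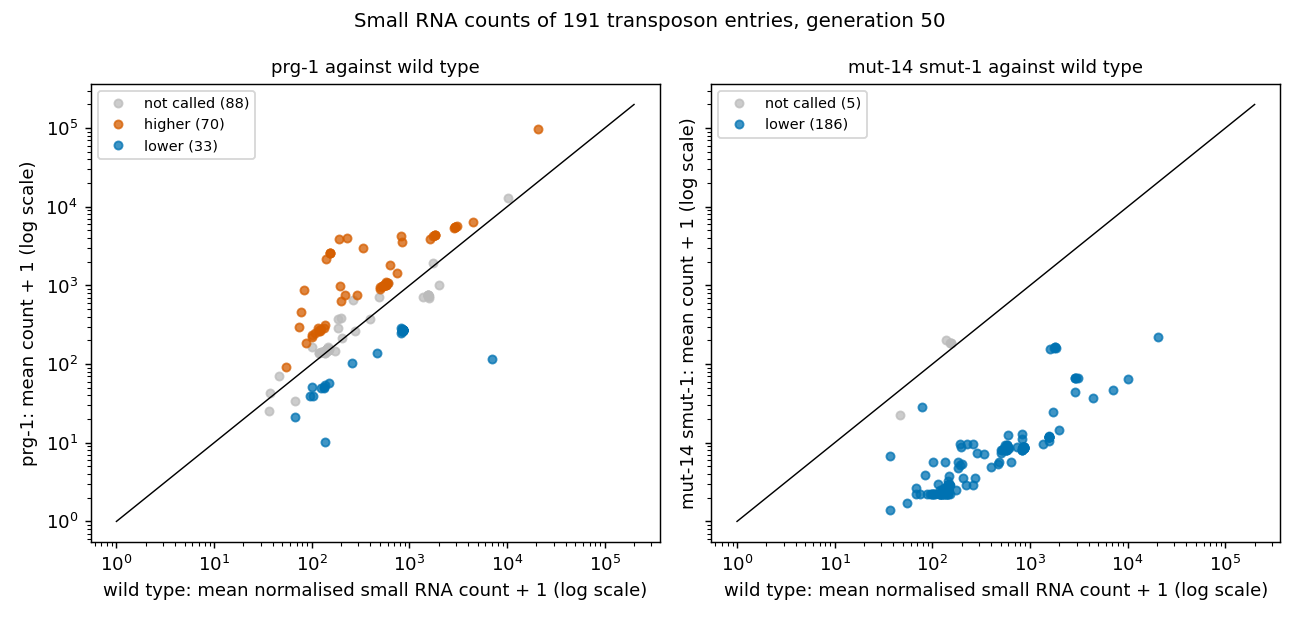
Mean normalised small RNA count plus 1 of each of the 191 transposon entries at generation 50, wild type on the x axis and prg-1 (left) or the double mutant (right) on the y axis, both on log scales, with the diagonal marking equal counts and colours the limma calls. In prg-1 70 entries are called higher and 33 lower, and in the double mutant 186 are called lower.

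In prg-1 the transposon small RNAs went both ways: some entries gained them, some lost them and others were not called. limma called 70 of 191 entries higher and 33 lower than in wild type, which is 36.6% and 17.3%, where 20.2% of all features were higher and 59.2% lower. The median log2 change was 0.08 for the entries, -1.86 for all features and -2.39 for the other mut-class genes, of which 65% were lower. The split of the calls depended on how libraries were scaled. It was 26 higher and 45 lower after scaling to library totals, and 16 higher and 48 lower after scaling to the miRNA sum, and the median of all features moved to -2.15 and -2.58. The entries' own median turned to -0.32 and -0.6 under these scalings and to -0.44 by edgeR. Without piRNAs and miRNAs in the table it was 69 higher and 31 lower. Under library totals, the miRNA sum, edgeR and DESeq2, 16 of the 70 entries were still called higher and 24 of the 33 lower.

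The gains were largest for WBTransposon00000010, which had 376, 69.6 and 238 counts in wild type and 3782, 3921 and 4236 in prg-1. All 3 prg-1 lines lay above all wild-type lines, and the log2 change was 4.42 ± 0.498 (SE, adjusted p = 5.51e-06 from limma). The same arrangement held for WBTransposon00000207, with 146, 197 and 231 in wild type and 3617, 3187 and 4746 in prg-1. WBTransposon00000592 went from 318, 355 and 334 to 4061, 2551 and 2396, and WBTransposon00000215 from a mean of 83.3 to 874. WBTransposon00000214 and WBTransposon00000012 reached means of 4298 and 3596 from 827 and 835. All of these entries are among the 16 that were called higher under every scaling and tool named above.

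WBTransposon00000216, already the entry with the most small RNAs in wild type, rose further in prg-1. Its prg-1 lines had 100700, 78870 and 110000 counts, against the 20170 to 20850 of wild type. The log2 change was 2.22 ± 0.15 (SE, adjusted p = 6.1e-08). Without this entry the summed level in prg-1 was 1.43 times that of wild type, where it was 1.92 times with it.

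The 4 entries from WBTransposon00000048 to WBTransposon00000051 also gained small RNAs in prg-1. WBTransposon00000050 had a mean of 2621 in prg-1 against 153 in wild type (log2 change 4.02, adjusted p = 0.0123). WBTransposon00000009 rose less evenly, with 486, 131 and 754 counts in the prg-1 lines and 65.2, 90.3 and 77.1 in wild type.

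Smaller gains were measured in large groups of near-equal copies, and their call depended on the scaling. The 27 entries of the group that begins with WBTransposon00000013 had a median of 525, 610 and 591 in the wild-type lines and 1090, 993 and 1040 in prg-1, a median log2 change of 0.86. All 27 were called higher with the deposited scaling and by DESeq2, 2 by edgeR and 0 with library totals (median 0.46) or the miRNA sum (0.18). The 5 near-equal entries from WBTransposon00000097 to WBTransposon00000114 rose from 1658, 1968 and 1802 to 4674, 4120 and 4374, and 0 of them were called with the miRNA sum.

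Other groups of copies were not called in prg-1 at the deposited scaling. The 36 entries that begin with WBTransposon00000135 had a median of 138, 153 and 149 in wild type and 142.4, 140.6 and 179 in prg-1 (median log2 change 0.06). The 23 entries that begin with WBTransposon00000138 also had a median change of 0.06. Neither group had a call there, but both medians became -0.45 by edgeR, which called 36 and 18 of these entries lower, and -0.61 with the miRNA sum. WBTransposon00000275 was not called either, with 15110, 12280 and 11360 counts in prg-1 (log2 change 0.34 ± 0.167, adjusted p = 0.0785). Its change was -0.05 with library totals, -0.34 with the miRNA sum and -0.18 by edgeR, none of them called, while DESeq2 gave 0.35 and called it higher.

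The deepest loss in prg-1 was that of WBTransposon00000113. It had 6842, 7447 and 7002 counts in wild type and 190, 77.7 and 83.3 in prg-1, a log2 change of -6.04 ± 0.381 (SE, adjusted p = 3.42e-08). In the double mutant the same entry had 45.7, 65.2 and 28.7. The prg-1 lines of this entry lay above those of the double mutant and far below wild type.

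A group of 18 near-equal entries between WBTransposon00000052 and WBTransposon00000072 also fell. Its median was 822, 884 and 862 in wild type and 425, 237 and 141 in the prg-1 lines, and all 18 entries were called lower under every scaling and tool named above. WBTransposon00000059, with 452, 482 and 460 in wild type, had 230, 118 and 59.8. WBTransposon00000086 fell to 11.5, 7.4 and 8.82, although its wild-type lines were themselves uneven at 274, 72.3 and 60.2.

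**Figure D2:**
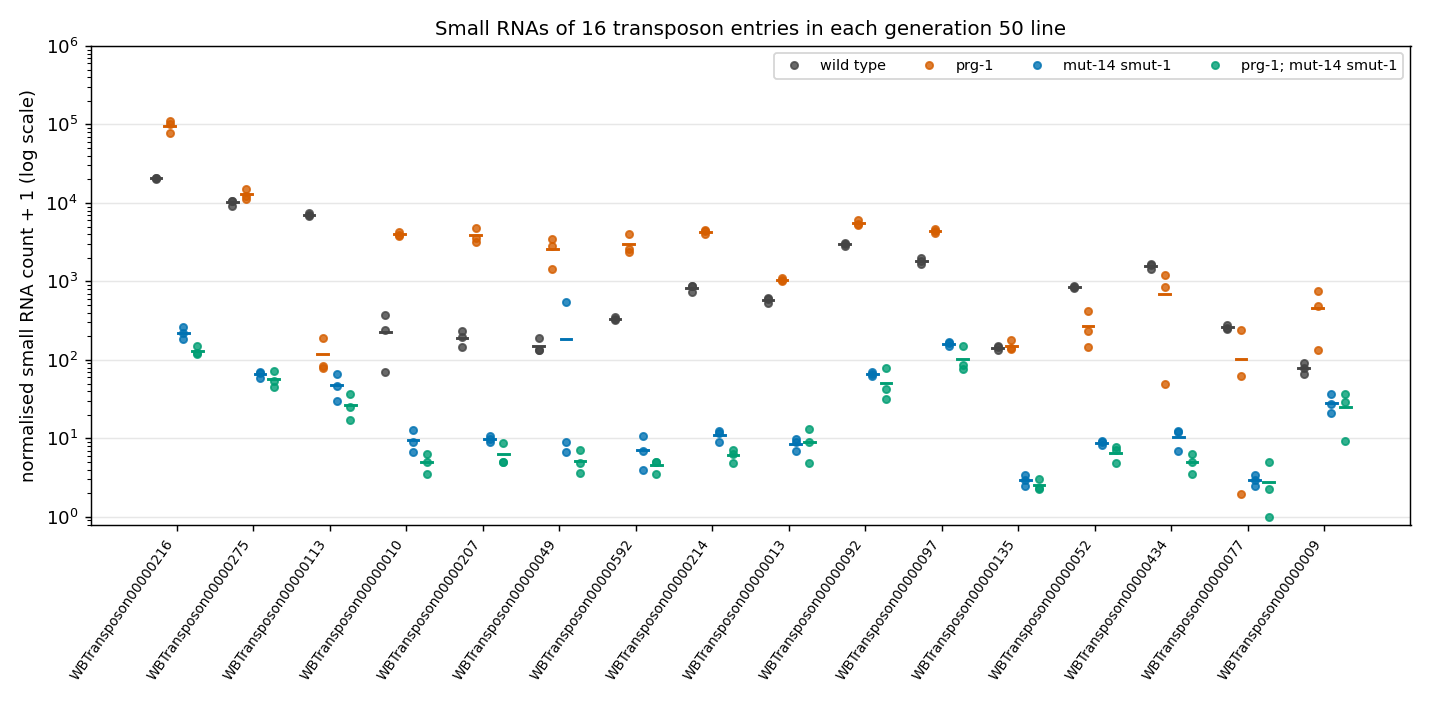
Normalised small RNA count plus 1 of 16 transposon entries at generation 50 on a log scale, with a point for each of the 3 lines of a genotype and a bar for their mean (blue for the double mutant, green for the triple mutant). WBTransposon00000010 stands at 3782 to 4236 in prg-1 and WBTransposon00000113 at 77.7 to 190, while the prg-1 lines of WBTransposon00000077 spread from 241 to 0.98.

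The prg-1 lines differed from each other far more than the wild-type lines for part of the set. In 8 profiles, which hold 20 entries, the highest prg-1 line exceeded the lowest by more than 5-fold, and line 3 was the lowest in 7 of the 8. WBTransposon00000077 had 241, 61.1 and 0.98 counts in prg-1 lines 1, 2 and 3, against 247, 255 and 277 in wild type. The 5 entries that begin with WBTransposon00000074 had a median of 120, 29.6 and 0.98, against 128, 127 and 141.9.

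Line 3 also stood apart for the 8 near-equal entries that begin with WBTransposon00000434. Their median was 1256, 914 and 52.9 in the prg-1 lines, against 1438, 1659 and 1596 in wild type. None of the 8 was called with the deposited scaling (median log2 change -1.98), while 8 were called lower with library totals, the miRNA sum and edgeR. Among wild-type lines the widest ratio was 5.4, for WBTransposon00000010.

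The small RNAs gained in prg-1 were not kept in the triple mutant. Against prg-1, limma called 190 of 191 entries lower and 0 higher, where 16% of all features were lower and 10.5% higher. At an unadjusted p below 0.05, and by edgeR and DESeq2, 0 entries were higher. The entry not called was WBTransposon00000077, whose prg-1 lines spread widely. WBTransposon00000010 went from the 3782 to 4236 of prg-1 to 2.56, 5.35 and 4.07 (log2 change -9.68), and WBTransposon00000216 from a mean of 96550 to 130.2 (log2 change -9.52).

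Against the double mutant, 22 entries were lower in the triple mutant and 0 higher, where 51.7% of all features were lower and 5.83% higher. At an unadjusted p below 0.05, 35 were lower and 0 higher, and edgeR called 6 lower and DESeq2 11. WBTransposon00000216 had 263, 216 and 186 counts in the double mutant, all above the triple mutant lines, whose highest was 149 (log2 change -0.75 ± 0.15, adjusted p = 0.000798). Without line 1 of the triple mutant, 43 entries were called, 35 lower and 8 higher.

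The prg-1 effect without MUT-14 and SMUT-1 was compared with the effect in their presence. The former is the triple mutant against the double mutant, which also differ at unc-119. Here and below, prg-1 and unc-119 cannot be told apart in this difference. The difference was called higher for 23 entries (12%) and lower for 41 (21.5%), both smaller shares than the 14.4% and 39.8% of all features. With the miRNA sum the split was 24 and 24 and the entries' median turned from -0.59 to 0.15, while edgeR called 21 entries and DESeq2 26. The split was 6 and 43 without triple mutant line 2, 10 and 39 without wild-type line 2, and 17 and 65 without triple mutant line 3. WBTransposon00000010 had the difference -5.35 ± 0.705 (SE, adjusted p = 0.000112) and WBTransposon00000113 the difference 5.19 ± 0.538 (adjusted p = 1.99e-05). In the double mutant both entries were already low, at means of 8.57 and 46.6.

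The mRNA of the entries was read in the same way. Summed over all entries it came to 2799 ± 217.5 normalised counts (SD, n = 3) in generation 1 wild type, which was 0.0151% of the counts. The sum was 2546 ± 92.8 in prg-1, 5262 ± 118.5 in the double mutant and 5504 ± 373.6 in the triple mutant. At generation 50 it was 4387 ± 243, 6892 ± 1325, 10070 ± 3592 and 9124 ± 637 in the same order. Counts are not corrected for length, so levels are not compared between entries. Of the 61 entries tested at generation 1, 26 reached a mean of 10 in every group and 21 did not reach it in wild type. Of the 91 at generation 50 these numbers were 33 and 46, so many entries passed only through the mutants in which they are high.

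Markers of germline, oocyte, sperm, intestine and body muscle were all detected in every group of these whole animals. Sperm transcripts differed between the groups as well. The summed level of 32 sperm markers, mainly major sperm protein genes, ran from 1840 to 2640 in generation 1 wild type, 7860 to 8700 in prg-1, 18000 to 21300 in the double mutant and 26800 to 32500 in the triple mutant, and no marker was at 0 in any group. The 11 oocyte markers ran from 294000 to 318000 in wild type and 181000 to 204000 in the double mutant, and the 10 germline markers from 53400 to 57500 and from 36300 to 39400. In the same order, 5 body muscle markers ran from 42700 to 47500 and from 73200 to 101000. The 8 intestine markers ran from 817000 to 901000 and from 417000 to 624000, with 6 called lower and 2 higher. For 7 early embryo markers the ranges were 87.8 to 95.4 and 36 to 45. The part of these cell types in the transposon results was not tested. In bulk samples, more cells of a type and more RNA per cell cannot be told apart.

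A small number of transposon transcripts were steeply higher in the double mutant at generation 1. limma called 17 of 61 entries higher (27.9%) and 6 lower (9.84%), both smaller shares than the 38.4% higher and 39.8% lower of all features. The median log2 change was 0.46 for the entries, 0.41 without the 8 listed at 0 in a group, and 0.05 for all features, and library totals moved that of all features to 0.26. WBTransposon00000098 was listed at 0 in all wild-type libraries and had 307, 272 and 298 counts in the double mutant (adjusted p = 1.31e-08). Its group of 5 entries with near-equal small RNAs was not at 0 in wild type. The mRNA of that group summed to 83.3, 84.9 and 61.9 in wild type and 464, 469 and 423 in the double mutant. WBTransposon00000006 had 34.3, 52.9 and 39.9 in wild type and 689, 677 and 510 in the double mutant (log2 change 3.86 ± 0.196, adjusted p = 6.16e-11).

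WBTransposon00000001 behaved likewise, with 43.8, 0 and 14.7 in wild type and 482, 493 and 449 in the double mutant (log2 change 5.74 ± 1.3, adjusted p = 0.000778). WBTransposon00000002 went from a mean of 11.3 to 339, and WBTransposon00000005 from 44.1 to 334. More modest rises were seen for WBTransposon00000275, from 72.1, 66.1 and 73.4 to 155, 177 and 168, and for WBTransposon00000010, from a mean of 185 to 302. For these entries all double mutant libraries lay above all wild-type libraries.

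WBTransposon00000216, the entry with the most small RNAs, fell as mRNA. Its transcript had 112.5, 95.3 and 97.6 counts in wild type and 16.1, 30.5 and 28.4 in the double mutant (log2 change -2.03 ± 0.237, adjusted p = 8.61e-07). WBTransposon00000445 fell from a mean of 143 to 68.4. WBTransposon00000587, the entry with the highest count in every generation 1 library, was not called, at 748 ± 36.3 in wild type and 730 ± 63.5 in the double mutant.

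In prg-1 at generation 1, 5 of 61 entries were higher (8.2%) and 9 lower (14.8%) than in wild type, where 25.6% of all features were higher and 31.9% lower. WBTransposon00000006 was listed at 0 in all prg-1 libraries, against 34.3 to 52.9 in wild type (adjusted p = 1.28e-12). WBTransposon00000275 fell to 36.2, 43.5 and 42 (log2 change -0.79 ± 0.121, adjusted p = 5.55e-05) and WBTransposon00000445 to a mean of 56.8. WBTransposon00000103 rose from a mean of 208 to 268 (log2 change 0.37) and WBTransposon00000056 from 15.6 to 35.8. WBTransposon00000098 was at 11.6, 14.5 and 0 in prg-1 and listed at 0 in wild type (adjusted p = 0.00379). Its group of 5 entries with near-equal small RNAs did not rise with it. The mRNA of that group summed to 66.7, 60.4 and 50.8 in prg-1, against 83.3, 84.9 and 61.9 in wild type.

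At generation 1 the triple mutant had more calls against prg-1 than against the double mutant. Against prg-1, 18 entries were higher and 4 lower, where 25.9% of all features were higher and 28.1% lower. WBTransposon00000006, at 0 in prg-1, had 496, 617 and 394 counts, and WBTransposon00000098 had 477, 560 and 445. WBTransposon00000216 was lower, at 19.9, 17.3 and 21.1 against 72.5, 59.2 and 99.4.

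Against the double mutant, 5 entries were higher in the triple mutant and 3 lower, where 6.03% and 5.5% of all features were. WBTransposon00000275 was at 202, 245 and 219 (log2 change 0.41 ± 0.121, adjusted p = 0.0376). WBTransposon00000058 was at 0, 8.09 and 0 against 33.7, 62.2 and 43.6. It is 1 of 18 entries with near-equal small RNAs, of which 7 were tested here. The mRNA of those 7 summed to 167, 180 and 148 in the triple mutant, against 129, 177 and 125 in the double mutant. A fit with only the triple and double mutant called 15 entries. The difference between the prg-1 effects was called higher for 9 entries and lower for 2, against 19.9% and 17.2% of all features, and library totals gave 5 and 3. For WBTransposon00000275 it was 1.2 ± 0.171 (adjusted p = 7.28e-05), and the entry was lower than wild type in prg-1 and higher than the double mutant in the triple mutant.

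**Figure D3:**
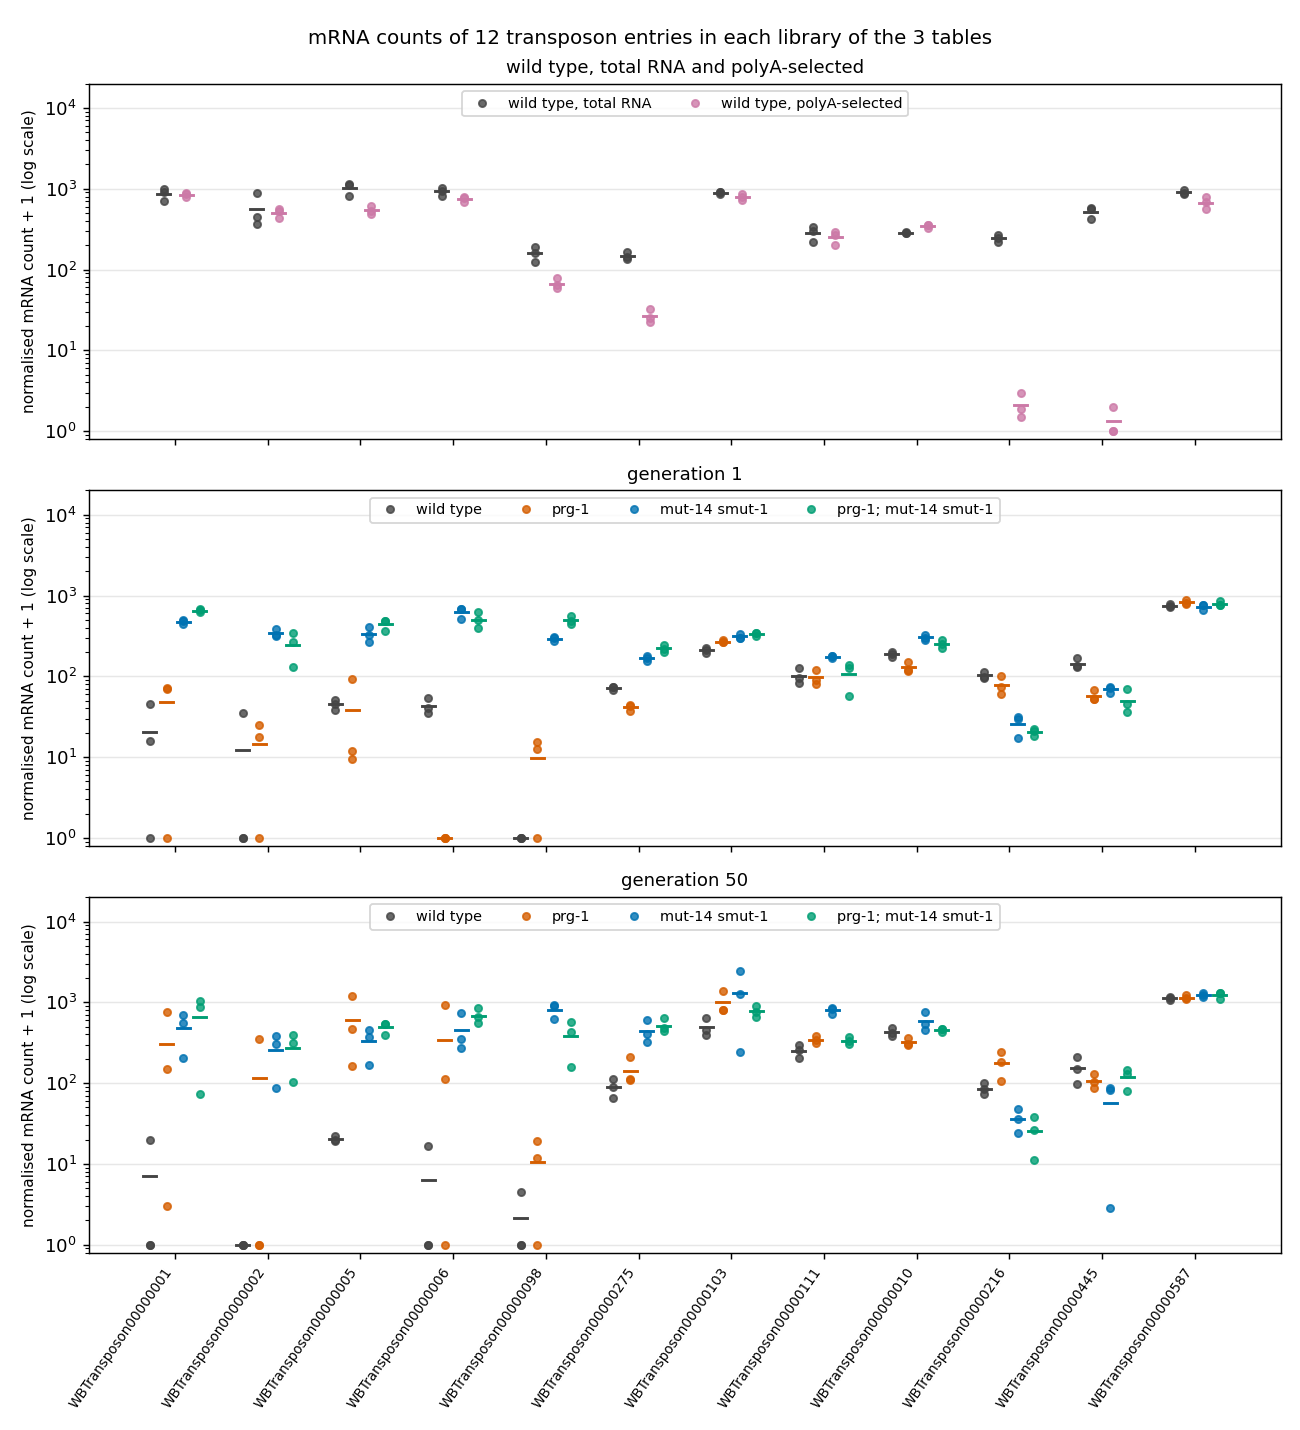
Normalised mRNA count plus 1 of 12 transposon entries in each library of the wild-type polyA and total RNA table, of generation 1 and of generation 50, on a log scale, with points for libraries and bars for their means (blue for the double mutant, green for the triple mutant). WBTransposon00000098 stands at 272 to 307 in the double mutant at generation 1 and at 622 to 918 at generation 50, with 0 to 3.47 in the wild-type libraries of those tables, and WBTransposon00000587 stays between 657 and 1299 in both generations.

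After 50 generations some of the same entries were higher in the double mutant. limma called 14 of 91 entries higher (15.4%) and 1 lower (1.1%), where 16.6% of all features were higher and 11.3% lower. Of 58 entries tested in both generations, 15 were higher at generation 1 and 13 at generation 50, and 10 were shared, which is 66.7% and 76.9%. Over all 14656 features tested in both, the shared ones were 40.3% of those higher at generation 1 and 87.4% of those higher at generation 50. Without wild-type line 3, 8 entries were higher and 1 lower, and without double mutant line 3, 13 were higher and 6 lower and the entries' median went from 0.56 to 0. WBTransposon00000098 had 0, 3.47 and 0 counts in wild type and 893, 918 and 622 in the double mutant (adjusted p = 0.000267). Its group of 5 entries with near-equal small RNAs summed to 150, 133 and 180 mRNA counts in wild type. In the double mutant that group sum was 1046, 1114 and 891.

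WBTransposon00000111 had 203, 295 and 255 counts in wild type and 855, 712 and 824 in the double mutant (log2 change 1.67 ± 0.171, adjusted p = 0.000176). WBTransposon00000275 went from 64.5, 89.2 and 112 to 400, 609 and 320 (log2 change 2.29 ± 0.323, adjusted p = 0.00106). WBTransposon00000254 was the entry called lower, from a mean of 15 to 3.54. In these lines the sperm markers summed to 8750, 58.4 and 838 in wild type and 19000, 6930 and 18900 in the double mutant. WBTransposon00000001 had 0, 18.5 and 0 counts in the wild-type lines and 552, 201 and 690 in the double mutant lines. The part of sperm content in these transposon values was not tested.

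Single lines carried some of the highest values. WBTransposon00000050 had 0, 0 and 1624 counts in double mutant lines 1, 2 and 3, and WBTransposon00000048 had 0, 0 and 954. Their small RNAs were also high in line 3, at 547 and 596 counts, with 4.96 to 7.94 in lines 1 and 2. The mRNA and small RNA libraries share line numbers in the labels, and whether they came from the same extraction is not stated. Double mutant line 3 also had the deepest mRNA library, at about 63849764 reads, against 26296984 and 15537594 in lines 1 and 2. The part of depth in these values was not tested. WBTransposon00000103 spread from 243 to 2442 over the double mutant lines, against 394 to 630 in wild type, and was not called.

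In prg-1 at generation 50, 3 of 91 entries were higher and 1 lower, where 7.41% of all features were higher and 3.85% lower. WBTransposon00000005 had 21, 18.5 and 18.1 counts in wild type and 473, 163 and 1183 in prg-1 (log2 change 4.48 ± 0.577, adjusted p = 0.00116). WBTransposon00000072 was listed at 0 in wild type and had 140, 100 and 26.2 in prg-1 (adjusted p = 0.00444). WBTransposon00000058 went the other way, from 63.1, 45.2 and 33.9 to 0 in all prg-1 lines (adjusted p = 0.0132). WBTransposon00000003, at 0 in wild type, had 80.2, 16.1 and 209.5 (adjusted p = 0.0319).

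Other entries differed widely between the prg-1 lines, with line 3 the highest. WBTransposon00000006 had 0, 112.5 and 922 counts in the prg-1 lines, WBTransposon00000001 had 148, 2.01 and 764, and WBTransposon00000002 had 0, 0 and 347.5. None of these was called. Without prg-1 line 3, 7 entries were called in this comparison, and without double mutant line 2, which enters through the shared estimate of the spread, 8. The prg-1 sperm marker sums were 17100, 23400 and 9000, and the part of sperm content in these values was not tested.

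Against prg-1, the triple mutant at generation 50 had 4 entries higher and 1 lower, where 0.413% and 0.298% of all features were. The triple mutant libraries held about 54313771 to 56504205 reads and those of prg-1 14285119 to 25235777, and the part of depth was not tested. WBTransposon00000275 had 435, 475 and 632 counts against 108, 111 and 207 in prg-1 (log2 change 1.9 ± 0.323, adjusted p = 0.021). WBTransposon00000098 had 155, 563 and 430 against 10.8, 18.1 and 0. WBTransposon00000216 was lower, at 25.5, 37.3 and 10.1 against 182, 104 and 245 (log2 change -2.9 ± 0.473, adjusted p = 0.0171). Leaving out line 1, 2 or 3 of the triple mutant left 2, 2 and 1 entries called, leaving out prg-1 line 2 left 3, and leaving out double mutant line 2 gave 8.

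Against the double mutant, 1 of 91 entries was lower in the triple mutant and 0 higher, where 0.547% of all features were lower and 1.39% higher, and 11 entries were higher at an unadjusted p below 0.05. The entry was WBTransposon00000111, at 304, 372 and 327 against 712 to 855 (log2 change -1.25 ± 0.171, adjusted p = 0.00726). Leaving out single libraries gave 0 to 5 calls, with 0 without line 1 of the triple mutant and 5 without double mutant line 3. The difference between the prg-1 effects was called lower for 3 entries and higher for 0, against 2.85% and 1.7% of all features, and 9 were higher at an unadjusted p below 0.05. For WBTransposon00000111 it was -1.71 ± 0.242 (adjusted p = 0.00492) and for WBTransposon00000005 it was -3.81 ± 0.816 (adjusted p = 0.0275).

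Small RNA and mRNA were set side by side for the 59 entries tested in both generation 50 tables. In the double mutant, 55 of them had lower small RNAs, and of these 5 had higher mRNA, 1 had lower mRNA and 49 had no mRNA call. The 5 are a smaller share than the 16.6% of all features with higher mRNA in this comparison. WBTransposon00000275 is one of the 5, with a log2 change of -7.27 in small RNA and 2.29 in mRNA. WBTransposon00000098, WBTransposon00000093, WBTransposon00000072 and WBTransposon00000041 are the others. WBTransposon00000008 had higher mRNA (log2 change 3.65, adjusted p = 0.0176) with small RNAs that were not called.

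In prg-1, 26 of the 59 entries had higher small RNAs, and none of these had an mRNA call, in a comparison where 4 of 91 entries had one and 7.41% of all features were higher and 3.85% lower. The 26 are calls at the deposited scaling, and several are near-equal copies of each other. Of all 70 entries called higher at that scaling, 16 were kept under every scaling and tool named above. WBTransposon00000072 had lower small RNAs (log2 change -1.82, adjusted p = 0.000319) and higher mRNA, while WBTransposon00000058, a near-equal copy by its small RNAs, had lower small RNAs (log2 change -1.81) and lower mRNA. Their group of 18 holds 11 entries tested as mRNA. These summed to 143, 154 and 111 counts in the wild-type lines and 791, 524 and 105 in prg-1. Some of them, such as WBTransposon00000060 at 0 in wild type, reached the filter only in mutants, so this sum is not independent of the filter. WBTransposon00000113, with the deepest loss of small RNAs, had 125, 78.7 and 89.4 mRNA counts in wild type and 98.7, 88.4 and 57.1 in prg-1 (log2 change -0.27, adjusted p = 0.687).

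**Figure D4:**
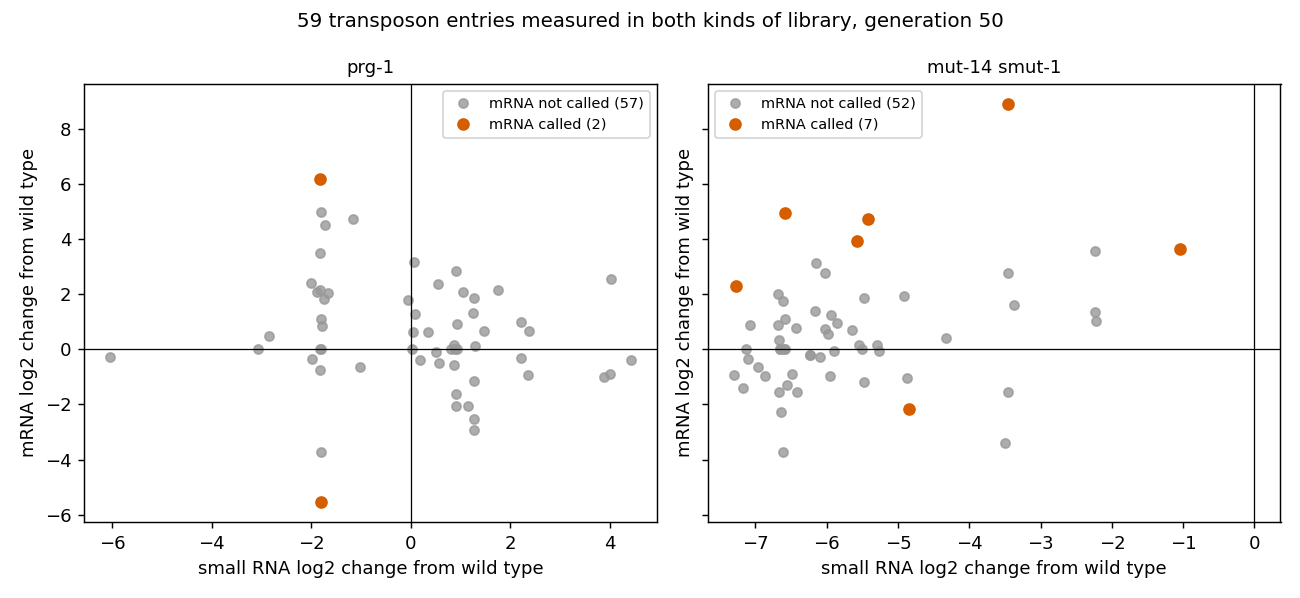
Log2 change of small RNA (x axis) against log2 change of mRNA (y axis) at generation 50 for the 59 transposon entries tested in both tables, in prg-1 (left) and the double mutant (right) relative to wild type, with mRNA calls coloured. In prg-1 2 entries have an mRNA call, and in the double mutant 7 have one, 6 of them higher.

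Genes of the silencing machinery itself were read from a list of 50, of which 47 were tested. In prg-1 at generation 1, 3 were higher and 32 lower, where 25.6% of all features were higher and 31.9% lower. The risers were parn-1, which trims piRNA 3' ends, from a mean of 797 to 2674 (log2 change 1.75 ± 0.0502, adjusted p = 6.84e-14), rde-11, a factor of exogenous RNAi, and the PRG-1 paralogue prg-2 (log2 change 0.18, adjusted p = 0.037). The nuclear Argonaute gene nrde-3 fell from a mean of 1459 to 728. In the double mutant, 2 of the 47 were higher and 44 lower, against 38.4% and 39.8% of all features. The germline marker sum was also lower there, as given above, and its part in these counts was not tested. At generation 50, 2 were higher and 2 lower in prg-1, where parn-1 again rose (log2 change 1.9 ± 0.214, adjusted p = 0.000516), and 3 were higher and 11 lower in the double mutant. The shares of all features were 7.41% and 3.85% in the former and 16.6% and 11.3% in the latter. The list holds the mutated genes prg-1, mut-14 and smut-1 themselves, so the counts of lower genes are not independent of the mutations. At generation 50, prg-1 stood at a mean of 10190 in wild type and 3815 in the prg-1 mutant.

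In wild type, transposon transcripts differed in how far polyA selection kept them. Against total RNA, 29 of 59 entries were lower and 1 higher, where 10.8% of all features were lower and 5.35% higher, and the median log2 change was -1.27 for the entries and 0.07 for all features. Of the 59 entries, 29 reached a mean of 10 in 1 group only, and the entries' median was -0.73 with 10 or more counts required in 3 libraries, -0.24 with a mean of 100 and -0.42 with no filter. WBTransposon00000445 had 582, 557 and 423 counts in total RNA and 0, 0 and 0.983 in polyA RNA (adjusted p = 1.18e-12). WBTransposon00000216 had 270, 244 and 221 against 0.869, 0.515 and 1.97.

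Other entries were kept by polyA selection. WBTransposon00000001 had 995, 900 and 707 counts in total RNA and 880, 795 and 855 in polyA RNA, and was not called. WBTransposon00000010 was called higher, at 358, 359 and 326 against 285, 280 and 290 (log2 change 0.29 ± 0.0928, adjusted p = 0.0469), but was not called with library totals or median-ratio factors. WBTransposon00000275 was intermediate, at 31.3, 24.2 and 21.6 against 162, 143 and 135.

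**Figure D5:**
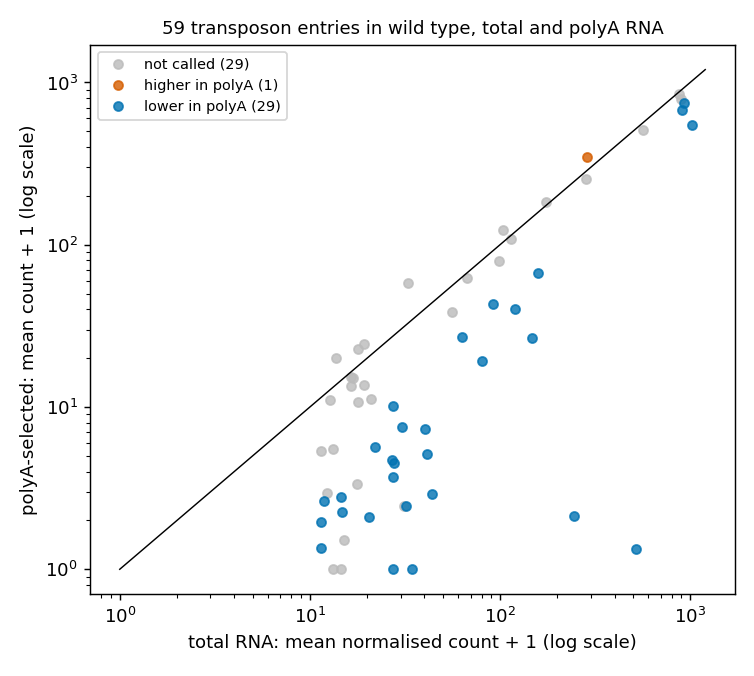
Mean normalised mRNA count plus 1 of the 59 transposon entries tested in the wild-type polyA and total RNA table, total RNA on the x axis and polyA RNA on the y axis, both on log scales, with the diagonal marking equal counts and colours the limma calls. 29 entries are called lower in polyA RNA, 1 higher and 29 not called, and WBTransposon00000445 and WBTransposon00000216 lie near the bottom.

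Some entries that were higher in the double mutant were also high in the wild-type animals of that table, and others were not. The tables were normalised separately, so values are set side by side as CPM, counts scaled to the library total, with no test. In total RNA of that table WBTransposon00000005 stood at 35 CPM, against 2.39 in generation 1 wild type and 21 in the generation 1 double mutant. WBTransposon00000001 stood at 29.7, against 1.04 and 29.9. WBTransposon00000010 was at 9.77 against 10 and 19, and WBTransposon00000275 at 5.02 against 3.82 and 10.5. WBTransposon00000587 stood at 30.9 against 40.5 in generation 1 wild type. Over the 51 entries in both tables, the median ratio of that total RNA to generation 1 wild type was 1.08. The ratio was not taken over all features. The sperm marker sum was 935 to 1160 CPM in those total RNA libraries, set beside 102 to 140 CPM in generation 1 wild type and 1130 to 1380 CPM in the generation 1 double mutant, and its part in these levels was not tested.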

How the data were processed

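The tables hold values that the authors deposited as signal: read counts per feature divided by a normalisation factor per library, as the values show. For small RNA, 100% of values were whole reads within 0.01 after division by 1 step per library. For mRNA, 91.3% to 94.6% were whole within 0.1, so mRNA depth is approximate. Per the labels' protocols, mRNA libraries came from rRNA-depleted RNA and small RNAs were gel-selected and treated with polyphosphatase. Both kits given for mRNA keep strand, and the kit of each library was not stated. The aligner, the counter and the build were not given in the sources used here. Of 59 libraries, 30 mRNA and 12 small RNA libraries were used; the other small RNA tables hold no transposon rows.

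Values were taken as log2(value + 1), so fold changes of low entries are understated. All features with a mean of 10 or more in any group were fitted with limma 3.58.1 (R 4.3.3), with a mean-variance trend over all groups of that table. Benjamini-Hochberg adjustment ran over all features and adjusted p under 0.05 was called, in 16 contrasts. The fit was tested on simulated data. Alternatives included edgeR 4.0.16 and DESeq2 1.42.0 on recovered small RNA reads. Second entries of a gene were dropped.

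Named entries were, per contrast, the called entries with the largest change, up to 5 each way in mRNA and 8 in small RNA, the 8 highest in wild type per table, and entries called in both generation 50 tables. Entries from single lines and wild-type tables were named after their values were seen. The members and gene lists were chosen with earlier results of these data known. Libraries were fitted without pairing by replicate number.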

Additional observations from a re-analysis of the deposited data

Results flagged for a closer look

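The change from the double to the triple mutant differed from that between wild type and prg-1 in limma's test of the difference itself. This held for 11 entries in generation 1 mRNA, 3 in generation 50 mRNA and 64 in generation 50 small RNA. The double mutant also carries unc-119(ed3) and the triple mutant does not, so prg-1 and unc-119 cannot be told apart in this difference. The shares of entries stood near or below those of all features: 14.8% higher and 3.28% lower against 19.9% and 17.2% at generation 1, 0% and 3.3% against 1.7% and 2.85% at generation 50, and 12% and 21.5% against 14.4% and 39.8% in small RNA. In generation 1 mRNA the adjusted p from limma was 1.07e-09 for WBTransposon00000006, 1.89e-05 for WBTransposon00000114, 0.00403 for WBTransposon00000050, 0.0164 for WBTransposon00000020 and 0.0481 for WBTransposon00000095. In generation 50 mRNA it was 0.00492 for WBTransposon00000111, 0.0275 for WBTransposon00000005 and 0.0317 for WBTransposon00000072. In small RNA it was 1.99e-05 for WBTransposon00000113, 0.000112 for WBTransposon00000010, 0.00912 for WBTransposon00000050, 0.0138 for WBTransposon00000048, 0.0146 for WBTransposon00000055 and 0.0153 for WBTransposon00000086.

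A few of the 58 entries tested in both generations had all libraries of a group on opposite sides at generation 1 and generation 50. None was called in opposite directions, and the share over all features was not taken. These differences between generations were not tested. WBTransposon00000340 had an mRNA log2 change of -0.12 in prg-1 at generation 1 and 0.52 at generation 50. WBTransposon00000058 had 1.41 and -2.29 in mut-14 smut-1. The tested entries of its group of 18 with near-equal small RNAs did not fall with it at generation 50. Their mRNA summed to 163, 114 and 499 in mut-14 smut-1, against 143, 154 and 111 in wild type. In the triple mutant against the double mutant, WBTransposon00000098 had 0.75 and -1.25, WBTransposon00000100 had -1.18 and 2.47, and WBTransposon00000256 had -0.65 and 0.66. WBTransposon00000098 and WBTransposon00000100 share a group of 5 entries with near-equal small RNAs, and their signs were opposite within each generation. Summed mRNA of this group rose at generation 1, from 464, 469 and 423 to 563, 634 and 549. At generation 50 the ranges overlapped, with double mutant sums of 1046, 1114 and 891 and triple mutant sums of 447, 777 and 960.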

How the results depend on the processing

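Counts are of transposon entries called. Requiring a mean of 100 gave 9 in the polyA comparison, at generation 1 7 in prg-1, 12 in the double mutant, 3 and 11 in the triple mutant against the double mutant and prg-1 and 4 for the difference, and 2 in prg-1 at generation 50. With no filter there were 38 in the double mutant and 35 in the triple mutant against prg-1 at generation 1, and 9 in prg-1 at generation 50. Fitting only the groups compared gave 15 for the triple mutant against the double mutant at generation 1. In small RNA that comparison gave 11 with library totals, 10 with a pseudocount of 10, 14 with the miRNA sum, 6 by edgeR, 11 by DESeq2 and 12 without piRNAs and miRNAs. The small RNA difference gave 100 with a pseudocount of 10, 21 by edgeR and 26 by DESeq2, and prg-1 gave 64 with the miRNA sum. WBTransposon00000046 changed sign in prg-1, from 0.51 to -0.17 with the miRNA sum and -0.01 by edgeR. The causes were not tested. With 1 entry for each of the 62 profiles, an alternative chosen after seeing the data, the small RNA calls were 38 in prg-1, 59 in the double mutant, 13 and 61 in the triple mutant against the double mutant and prg-1, and 30 for the difference, since fewer entries were tested. The summed level relative to wild type at generation 1 was 0.99, 2.19 and 2.29 with library totals and 0.841, 2.21 and 2.3 without the highest entry, for prg-1, the double mutant and the triple mutant. At generation 50 that of the triple mutant was 2.41 without the highest entry. In small RNA it was 1.46 with library totals, 1.43 without the highest entry and 1.2 with the miRNA sum in prg-1, 0.0084 with the miRNA sum in the double mutant, and 0.00958 and 0.00451 with library totals and the miRNA sum in the triple mutant. Leaving out each library gave 26 to 33 calls in the polyA comparison. At generation 1 it gave 13 to 17 in prg-1, 18 to 24 in the double mutant, 6 to 11 and 17 to 25 in the triple mutant against the double mutant and prg-1, and 6 to 12 for the difference, with 7 without wild-type library 2, double mutant library 1 or triple mutant library 3 and 6 without double mutant library 3. At generation 50 the ranges were 3 to 8, 9 to 19, 0 to 5, 1 to 8 and 1 to 7, the last with 7 without prg-1 line 3, 6 and 5 without double mutant lines 2 and 3, and 1 without triple mutant line 1 or 2. In small RNA they were 72 to 106, 185 to 189, 17 to 43, 183 to 190 and 49 to 82. Same-numbered libraries correlated above 0.1 in 1 of 3 pairs in the polyA table and 0 of 18 at generation 1. At generation 50 this held for 4 of 18 pairs in mRNA and 1 of 18 in small RNA. In the polyA table same-numbered pairs ran from 0.01 to 0.3 and other pairs from -0.19 to 0.12. Such correlations cannot settle whether the numbers pair the libraries. A replicate block gave 35 calls in the polyA comparison, 14, 21, 10, 23 and 11 at generation 1, 4, 14, 1, 5 and 3 at generation 50, and 106, 185, 19, 191 and 63 in small RNA, all within 1.5 times the reported counts. Over 3846 refits of 167 pairs of a called entry and its comparison, 3479 kept direction and side of the threshold, 365 lost the call and 2 changed sign. Depth limits entries with few reads.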
